A study of Rattus norvegicus with 25 samples.

Results

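Apolipoproteins are the protein part of lipoproteins, the particles that carry lipids in blood, and the liver is a main source of them. Apolipoprotein B is the scaffold of the triglyceride-rich particles that the liver secretes, and apolipoproteins A-I and A-II are proteins of high-density lipoprotein (HDL). The small C apolipoproteins and apolipoprotein E move between particles, where they set how fast lipases and receptors clear them. The genes described here are the 9 listed apolipoproteins Apoa1, Apoa2, Apoa4, Apob, Apoc1, Apoc2, Apoc3, Apoe and Apoh, of which 6 had a probe whose platform annotation carries the symbol. These 6 genes had 7 of the 9911 gene probes on the array, a single probe each for Apoa1, Apoa2, Apoc1, Apoc3 and Apoe and 2 for Apob. Apoa4 (a lipoprotein protein of intestine and liver), Apoc2 (the activator of lipoprotein lipase) and Apoh (beta-2-glycoprotein I) had no probe under that rule.

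The livers were of male Sprague-Dawley rats, and RNA of each was measured on a CodeLink UniSet Rat I array with 1 colour (25 arrays). Chow rats (6 arrays) ate standard laboratory chow and served as a reference. Supplemented rats (6 arrays) came from dams that received pyrroloquinoline quinone (PQQ, a redox cofactor) in the basal diet ASD through the last 10 days of gestation and were then fed the diet of their dams. Deficient rats (6 arrays) and their dams had the basal ASD without PQQ. At 6.5 weeks some supplemented rats were switched to the deficient diet for 48 h (depletion, 3 arrays), and some deficient rats were injected intraperitoneally with PQQ at 1.5 mg per kg body weight every 12 h for 36 h (repletion, 4 arrays). The labels name no group injected without PQQ, so injection and PQQ cannot be told apart in the repletion rats, and they do not give the dam of each rat. The composition of the chow, and so every difference between chow and ASD other than PQQ, is not given in the sources used here.

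The arrays of chow 1 and 2 and of supplemented 5 and 6 differed from each other by less than any other pair examined (spread of log2 ratios 0.12 and 0.121, against 0.225 to 0.42). Pairs were examined where both arrays belonged to the same group, any of the 5, and to the same array set, as defined below. Averaging each of these pairs into 1 sample gave 23 samples (5 chow, 5 supplemented, 6 deficient, 3 depletion and 4 repletion). Shared defective spots placed the arrays in 5 sets. Chow 1 to 3 and supplemented 1 made up set 1, with set 2 being supplemented 2 and 3, set 3 supplemented 4 to 6 with deficient 1 to 5, set 4 deficient 6 with the depletion arrays, and set 5 chow 4 to 6 with the repletion arrays. The median raw intensity of an array ranged from 155.4 to 337.4, and 82.8% to 89.6% of gene probes lay above background. Of the hepatocyte markers, all 3 with a probe (Alb, Fgb and Tat) were above background on every array, while the fat cell markers Adipoq and Lep were not. Also above background on every array were 2 of 3 enterocyte and 1 of 4 pancreatic acinar markers. The enterocyte marker tested was lower in chow than in deficient rats (-1.11) and higher in depletion (1.28) and repletion (1.27) than in chow rats. The acinar marker tested was higher in chow than in deficient (0.81) and supplemented rats (0.78). These log2 differences passed the test described below and other pairs did not. The part of such cells was not tested. In whole liver, fewer cells of a type and less RNA per cell cannot be told apart. Precision is limited by how many arrays each group has.

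Apoc1 and Apoe lie next to each other on rat chromosome 1, in the order Apoc2, Apoc4, Apoc1, Apoe, and Apoa1 and Apoc3 lie next to each other on chromosome 8 in the order Apoa1, Apoc3, Apoa4, Apoa5. Apoc1 and Apoe were the 2 of the 6 genes with an entry in the RefSeq promoter table (build GRCr8), and their promoters are shown because they are chromosomal neighbours that were both measured here. Each stretch covers 250 bases before to 50 bases after the annotated start furthest downstream, chr1:88478171-88478470 for Apoc1 and chr1:88484471-88484770 for Apoe, both on the minus strand and written 5′ to 3′ along the gene. Capitals mark matches, on either strand, to a GC box (GGGCGG) or a CCAAT box (CCAAT).
Apoc1: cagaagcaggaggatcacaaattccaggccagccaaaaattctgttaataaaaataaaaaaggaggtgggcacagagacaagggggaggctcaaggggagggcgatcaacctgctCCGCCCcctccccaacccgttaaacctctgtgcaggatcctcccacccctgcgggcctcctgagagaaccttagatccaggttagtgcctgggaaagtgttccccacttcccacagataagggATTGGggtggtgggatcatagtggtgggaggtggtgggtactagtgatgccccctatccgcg
Apoe: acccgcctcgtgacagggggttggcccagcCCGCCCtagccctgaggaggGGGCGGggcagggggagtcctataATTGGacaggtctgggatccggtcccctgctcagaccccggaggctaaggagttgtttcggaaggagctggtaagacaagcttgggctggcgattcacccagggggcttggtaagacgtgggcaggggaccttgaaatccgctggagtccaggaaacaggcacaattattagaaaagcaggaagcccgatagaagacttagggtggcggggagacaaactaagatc
The Apoc1 stretch held 1 GC box (bases -135 to -130) and 1 CCAAT box (bases -12 to -8), and the Apoe stretch held 2 GC boxes (bases -220 to -215 and -200 to -195) and 1 CCAAT box (bases -176 to -172). Such boxes were common, since 34.461% of 27457 rat promoters of this length held a GC box and 37.513% a CCAAT box. A TATA box (TATAAA, in 14.31% of promoters) and a nuclear receptor core motif (AGGTCA, in 15.759%) had no match in either stretch. No matches overlap in the printed stretches. The table lists 2 starts for Apoc1 and 3 for Apoe, and the Apoe start furthest upstream (chr1:88485767-88486066) had no match to any of these 4 motifs.

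The apolipoprotein probes were among the brightest on the arrays. Apoc1, a small exchangeable protein of triglyceride-rich particles and HDL, ranked between 1 and 9 among the 9911 gene probes on all 25 arrays. Apoc3, an inhibitor of lipoprotein lipase and of remnant clearance, ranked between 1 and 16, Apoa1 between 3 and 30, Apoe between 3 and 36 and Apoa2 between 13 and 57. No spot of these genes was marked as defective. Raw intensities were 40473 to 48299 for Apoc1, 36718 to 47360 for Apoc3, 29719 to 45892 for Apoa1, 26913 to 46639 for Apoe and 19230 to 40192 for Apoa2. No gene probe came within 99% of 65535, the ceiling of a 16-bit scanner, the brightest spot of all arrays being at 50230.5.

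The brightest probes nevertheless followed the brightness of their array only weakly. The array median differed 2.171-fold between arrays, but the brightest gene probe of an array differed only 1.195-fold. Among probes with a mean raw intensity of 1000 to 5000, the slope of log2 intensity on the log2 array median had a median of 1.12. It was 0.88 among the 25 probes between 20000 and 30000, 0.45 among the 20 between 30000 and 40000, and 0.07 among the 7 above 40000. The members had slopes of 0.05 (Apoc1), 0.2 (Apoc3), 0.47 (Apoa1), 0.01 (Apoa2) and -0.04 (Apoe). Apoc1 lay at 80% or more of the brightest gene probe on 25 of 25 arrays, Apoc3 on 24, Apoa1 on 19, Apoe on 18 and Apoa2 on 5. Quantile normalization gives the brightest probe of each array a log2 value of 15.5, the probe ranked 20 a value of 15.09 and the probe ranked 60 a value of 14.21, so that differences among the brightest probes are set by ranks within a narrow range. At these ranks a small difference between groups does not show equal RNA levels.

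**Figure D1:**
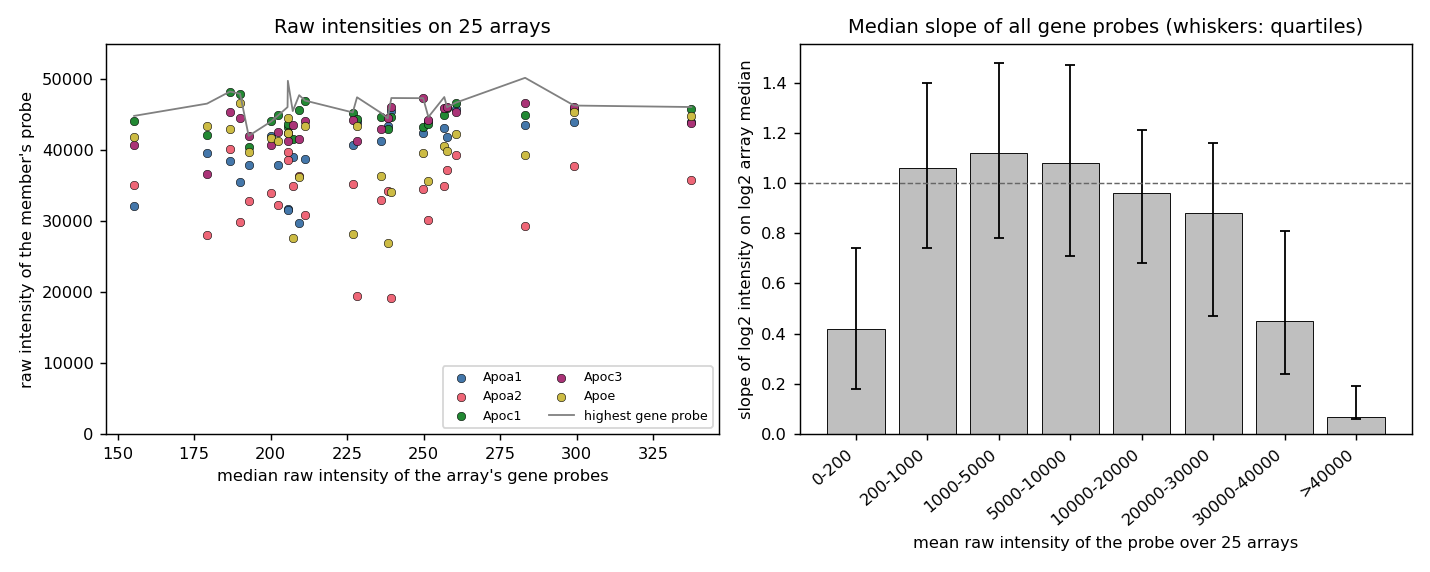
Left, the raw intensity of each member's probe (y axis, linear scanner units) against the median raw intensity of the array's gene probes (x axis, linear scanner units) on 25 arrays, with a line through the brightest gene probe of each array. Right, the median slope of log2 intensity on log2 array median in bins of mean raw intensity, with whiskers for the quartiles: the slope is near 1 from 200 to 20000 and falls to 0.45 between 30000 and 40000 and to 0.07 above 40000, the range of Apoc1 and Apoc3.

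Apob contrasted with the other members. Its probes had raw intensities of 73 to 146 and 92 to 126, above a background limit of 61.4 to 72.7 on each array but far below the array medians. Neither probe passed the filter (higher than the median of the array in 50% or more of a group's samples), and no test was made. The brighter Apob probe averaged 6.95 ± 0.25 log2 units in chow (SD, n = 5), 6.70 ± 0.14 in supplemented (n = 5), 6.81 ± 0.26 in deficient (n = 6), 6.73 ± 0.15 in depletion (n = 3) and 6.94 ± 0.09 in repletion rats (n = 4). The other probe averaged 6.70 ± 0.40, 6.27 ± 0.04, 6.35 ± 0.16, 6.48 ± 0.10 and 7.13 ± 0.26 in the same order of groups. Both probes were lowest in supplemented rats, and the group that was highest was chow for the first and repletion for the second. Signal near background at an mRNA known to be abundant in liver gives no level for Apob in these rats, and whether these probes detect the liver transcript was not tested.

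A moderated F test over the 5 groups (limma, all groups in 1 fit, Benjamini-Hochberg adjustment over all probes tested) called 2 of the 5 members tested, Apoa2 (adjusted p = 0.002325) and Apoa1 (adjusted p = 0.01743), beside 38.7% of all 5411 probes tested. Apoe (adjusted p = 0.1399), Apoc1 (0.9353) and Apoc3 (0.8577) did not pass. Among the 10 pairs of groups, 8 of 50 gene-by-pair differences passed, of which 5 were of Apoa2, 2 of Apoa1 and 1 of Apoe, beside 12.4% of the same differences over all probes (6731 of 54341). The groups share samples between pairs, so these counts are not independent of each other.

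**Figure D2:**
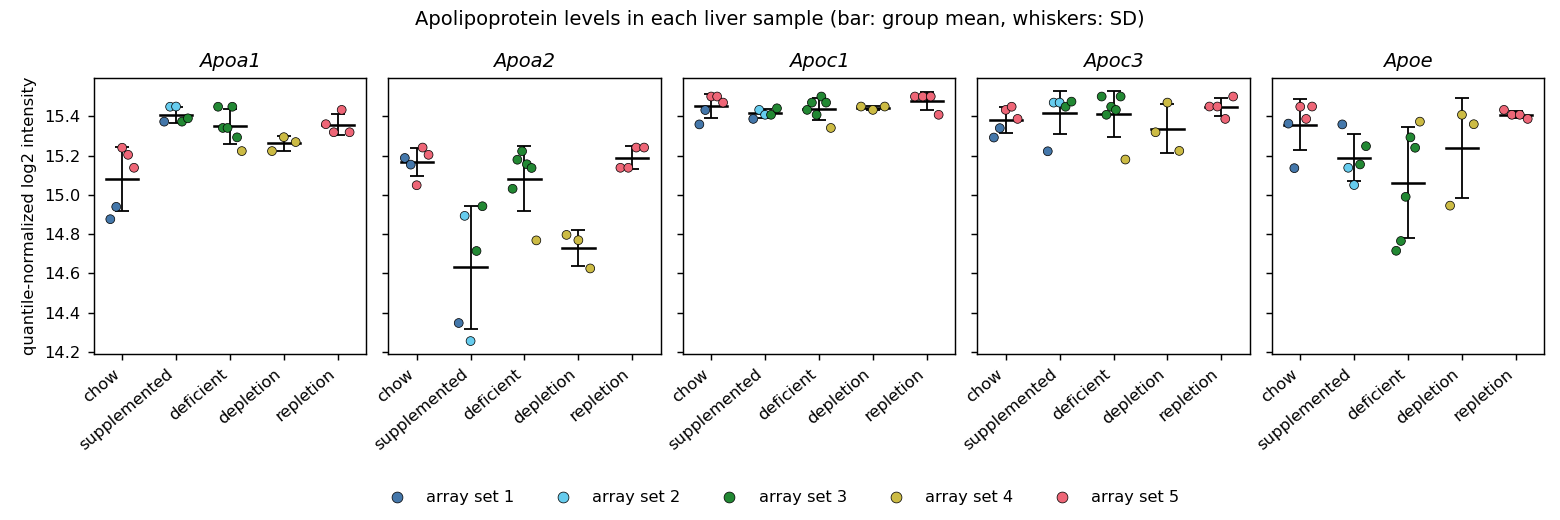
Quantile-normalized log2 intensity (y axis) of the 5 apolipoproteins tested in each of 23 samples by group (x axis), coloured by array set, with bars at group means and whiskers of 1 SD. Apoa2 is lowest in supplemented and depletion rats (means 14.63 and 14.73), Apoa1 is lowest in chow rats (15.08), Apoe is spread most widely in deficient rats (14.71 to 15.37), and Apoc1 and Apoc3 lie near the top of the range in every group.

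Apoa2, an HDL protein, was lower in rats fed PQQ than in deficient rats. Its log2 values were 14.35, 14.89, 14.25, 14.71 and 14.94 in the supplemented samples, a mean of 14.63 ± 0.31 (SD, n = 5). In the deficient samples they ran from 14.77 to 15.22 with a median of 15.15 and a mean of 15.08 ± 0.17 (n = 6). All but 1 of the deficient samples lay above every supplemented sample, the exception being deficient 6, the deficient sample of array set 4. The deficient group was higher by 0.45 log2 units (1.368-fold, SE 0.114, 95% interval 0.22 to 0.69, limma adjusted p = 0.03271). Apoa2 was the only member called in this comparison, 1 of 5, beside 3.29% of all probes tested. Under each of the other scalings the difference was positive and called (0.479 to 0.554 with median scaling, 75th percentile scaling, cyclic loess and the authors' value table). With the array set as a fixed block, which leaves the comparison within set 3, the difference was 0.317 and did not pass (adjusted p = 0.3461, and 0.3183 with set 3 alone). The call was also lost without supplemented 1, 3 or 4 or without any of deficient 1 to 5 (differences of 0.359 to 0.473, adjusted p from 0.05098 to 0.1118).

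In the other groups Apoa2 was at 15.19, 15.15, 15.05, 15.24 and 15.20 in chow (mean 15.17 ± 0.07, SD, n = 5), at 14.80, 14.77 and 14.63 in depletion (14.73 ± 0.09, n = 3) and at 15.14, 15.14, 15.24 and 15.24 in repletion samples (15.19 ± 0.06, n = 4). The order of the groups was supplemented, depletion, deficient, chow and repletion. No pair of neighbours in that order passed the test (adjusted p = 0.8286, 0.1161, 0.617 and 0.9647), while the pairs further apart did, except deficient with repletion (0.5051). Deficient and depletion rats, compared beside 7.67% of probes called, had no member called (Apoa2 -0.35, SE 0.133). Chow was 1.451-fold above supplemented (difference 0.54, SE 0.119, adjusted p = 0.008684), with no overlap between the groups in normalized values. The raw intensities overlapped, with 29919 to 40192 in chow and 19230 to 34913 in supplemented arrays. Repletion was above supplemented by 0.56 (SE 0.126, adjusted p = 0.005016, beside 19.1% of probes called) and above depletion by 0.46 (SE 0.144, adjusted p = 0.0462, beside 10.1%). Depletion was below chow (difference -0.44, SE 0.138, adjusted p = 0.04972, beside 8.94%). The groups of these 3 pairs share no array set. With the array set as a fixed block the differences were 0.849 (adjusted p = 0.06775), 0.57 (0.2809) and -0.545 (0.1992), and with it as a random block 0.688 (0.1826), 0.434 (0.6293) and -0.425 (0.216), so that none passed. Leaving out each of the 23 samples in turn kept the call of repletion against supplemented in 23 cases, of repletion against depletion in 8 and of depletion against chow in 5. With median scaling, repletion against depletion did not pass (0.363, adjusted p = 0.122), nor did it with cyclic loess (0.452, adjusted p = 0.05198). The raw intensities of Apoa2 did not follow this order everywhere: they were 33037 to 37830 in depletion and 30881 to 33978 in repletion arrays, whose array medians were 236.1 to 337.4 and 192.8 to 211.2. Without normalization between arrays, the difference of repletion minus depletion was -0.129 (limma adjusted p = 0.5184). That of repletion minus supplemented was 0.329 (adjusted p = 0.09923) and that of depletion minus chow -0.018 (adjusted p = 0.9207), so that none of the 3 passed. With the log2 array median as a covariate they were 0.589 (adjusted p = 0.03622), 0.639 (0.008677) and -0.592 (0.06085) in the same order. Both settings were added after seeing the data. The slope of 0.01 for Apoa2 was taken over the arrays of all groups. Array brightness differed between these groups, so group and brightness cannot be told apart in that slope.

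Apoa1, the main HDL protein and an activator of lecithin-cholesterol acyltransferase, was lower in chow rats than in supplemented and deficient rats, but this depended on the scaling. Its log2 values were 14.88, 14.94, 15.24, 15.20 and 15.14 in chow (15.08 ± 0.16, SD, n = 5) and 15.37, 15.45, 15.45, 15.37 and 15.39 in supplemented samples (15.41 ± 0.04, n = 5), with no overlap. The deficient samples ran from 15.22 to 15.45 with a median of 15.34 (mean 15.35 ± 0.09, n = 6), the depletion samples were at 15.22, 15.29 and 15.27 (15.26 ± 0.04, n = 3) and the repletion samples at 15.36, 15.32, 15.43 and 15.32 (15.36 ± 0.05, n = 4). The 2 chow samples of array set 1 were lower than the 3 of set 5. The order was chow, depletion, deficient, repletion and supplemented, and no neighbours in it differed by the test (adjusted p = 0.2374, 0.6331, 0.9467 and 0.7267).

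Chow was below supplemented rats in Apoa1 (difference -0.33, SE 0.081, 1.255-fold, adjusted p = 0.01535), so that 2 of 5 members were called between chow and supplemented, Apoa2 higher and Apoa1 lower, beside 9.49% of all probes. Chow was also below deficient rats in Apoa1 (difference -0.27, SE 0.077, adjusted p = 0.01269), which was 1 of 5 members, beside 27.4% of all probes. Repletion exceeded chow by 0.28 without passing (SE 0.085, adjusted p = 0.1036), and no member was called in that comparison, beside 1.35% of all probes. Against supplemented rats the Apoa1 difference was -0.001 with median scaling, 0.03 with 75th percentile scaling, -0.174 with cyclic loess and -0.152 in the authors' value table, none of them called. Against deficient rats it was -0.055, -0.024, -0.201 and -0.096 in the same order, also none called. Chow arrays were dim, with medians of 155.4 to 209.3 against 228.2 to 283.1 for supplemented and 179.2 to 260.6 for deficient arrays. Their raw Apoa1 intensities, before any scaling, were 29719 to 38442. All lay below those of supplemented (42448 to 45576) and deficient arrays (39032 to 45892). Group and array brightness cannot be told apart in these raw intensities. Chow and deficient rats share no array set. With the array set as a fixed block their Apoa1 difference was -0.458 (adjusted p = 0.1477) and with it as a random block -0.324 (adjusted p = 0.0932), while chow against supplemented was -0.465 (adjusted p = 0.04378) and -0.375 (adjusted p = 0.05008). The fixed-block value against supplemented rats rests on supplemented 1, the supplemented sample that shares a set with chow. With the log2 array median as a covariate, added after seeing the data, the Apoa1 difference was -0.32 against supplemented (adjusted p = 0.084) and -0.265 against deficient rats (adjusted p = 0.03048).

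The Apoa2 and Apoa1 probes were also set against each other within each array, without scaling between arrays. The difference of Apoa2 minus Apoa1, in log2 of background-subtracted intensity on the same array, averaged 0.11 ± 0.22 in chow (SD, n = 5) and -0.77 ± 0.42 in supplemented samples (n = 5). The chow samples lay between -0.25 and 0.31 and the supplemented samples between -1.25 and -0.30, with no overlap. The deficient samples lay between -0.50 and -0.16 (mean -0.27 ± 0.13, n = 6), the depletion samples averaged -0.28 ± 0.06 (n = 3) and the repletion samples -0.27 ± 0.06 (n = 4). Chow and supplemented samples stood apart from each other, and the means of the other 3 groups were alike. Each of the 2 overlapped these groups, with chow 4 at -0.25 and supplemented 5 and 6 at -0.30. The probes had unequal slopes on array brightness (0.01 for Apoa2 and 0.47 for Apoa1) and the chow arrays were the dimmer ones. Group and brightness thus cannot be told apart in this difference, and the part of brightness was not tested. A ratio of these probes does not say which of the genes differed, and it was chosen after the values had been seen, so no test was made. In array set 1, the 2 chow samples were at 0.31 and 0.29 and supplemented 1 at -1.17. In set 5, chow samples were at -0.25, 0.06 and 0.13 and repletion samples at -0.33 to -0.20, and in set 3 supplemented samples were at -0.57 and -0.30 and deficient samples at -0.34 to -0.16.

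**Figure D3:**
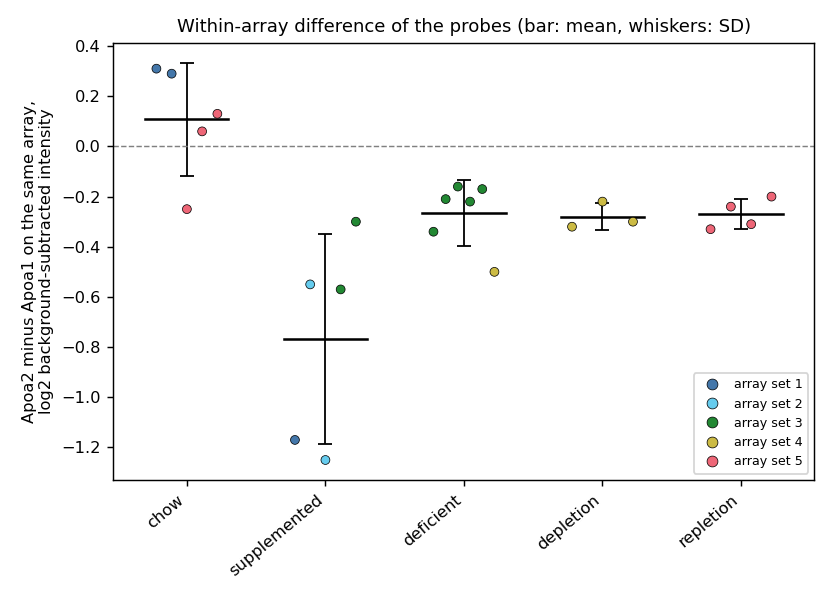
Difference between the Apoa2 and Apoa1 probes of the same array (y axis, log2 of background-subtracted intensity) in each of 23 samples by group (x axis), coloured by array set, with bars at group means and whiskers of 1 SD. Chow samples (mean 0.11) and supplemented samples (mean -0.77) do not overlap, while deficient, depletion and repletion samples average between -0.28 and -0.27.

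Apoe, the ligand through which remnant particles bind the low-density lipoprotein receptor, was higher in repletion than in deficient rats. Its log2 values were 15.43, 15.41, 15.41 and 15.39 in the repletion samples (15.41 ± 0.02, SD, n = 4) and ran from 14.71 to 15.37 with a median of 15.12 in the deficient samples (15.06 ± 0.28, n = 6). The groups did not overlap, but the highest deficient sample lay only just below the lowest repletion sample, and the raw intensities overlapped (39779 to 43406 in repletion and 26913 to 43421 in deficient arrays). The repletion group was higher by 0.35 (1.271-fold, SE 0.127, 95% interval 0.08 to 0.61, adjusted p = 0.03743). Apoe was the only member called, 1 of 5, beside 36.3% of all probes tested, so the share of members called was not above that of probes in general. Repletion and deficient rats share no array set, and with the array set as a fixed block, linked through other groups, the difference was 0.072 (adjusted p = 0.9727). Without deficient 1, 2 or 3, or without any one repletion sample, the difference was 0.277 to 0.353 and no longer passed (adjusted p from 0.06113 to 0.09175).

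The other Apoe values were 15.36, 15.14, 15.45, 15.39 and 15.45 in chow (15.36 ± 0.13, n = 5), 15.36, 15.14, 15.05, 15.15 and 15.25 in supplemented (15.19 ± 0.12, n = 5) and 14.95, 15.41 and 15.36 in depletion samples (15.24 ± 0.25, n = 3). Groups ordered from deficient through supplemented, depletion and chow to repletion, and neighbours in that order did not differ by the test (adjusted p = 0.599, 0.9459, 0.6624 and 0.9065). Chow exceeded deficient rats by 0.29 without passing (SE 0.119, adjusted p = 0.07015), although the difference passed with median scaling, 75th percentile scaling, cyclic loess and the authors' value table (0.432 to 0.607). Without chow 3, deficient 4 or deficient 6 it was 0.34 to 0.357 and passed (adjusted p from 0.02026 to 0.0461). Macrophages also express Apoe. Of the 5 macrophage markers tested, 3 were higher in repletion than in deficient rats (Lyz2 by 1.04, C1qa by 0.58 and Cd14 by 0.52), beside 36.3% of all probes called, while C1qb (-0.28, adjusted p = 0.07582) and Aif1 (0.09, adjusted p = 0.6541) did not pass. In chow against deficient rats 4 were higher, beside 27.4%, and C1qb (0.11) did not pass. The summed raw intensity of the 6 macrophage markers with a probe, all above background on every array, was 8149 to 9250 in repletion, 7578 to 10799 in deficient and 9750 to 11346 in chow arrays, and their part in the Apoe values was not tested.

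Apoc1 and Apoc3 stayed at the top of the range in every group. Group means ran from 15.42 to 15.48 for Apoc1 and from 15.34 to 15.45 for Apoc3. None of their 20 pairwise differences passed, and the 95% intervals of the 6 comparisons of the design lay within -0.28 and 0.25. Given the flat response of such bright spots, these intervals bound the normalized values and not the RNA levels. With median scaling and 75th percentile scaling, both were called higher in chow than in supplemented and deficient rats, by 0.25 to 0.477. In the authors' value table all 5 members tested were called higher in repletion than in deficient rats (Apoc1 by 0.416 and Apoc3 by 0.39). In that table the logarithm of the Apoc1 value correlated negatively with that of the array median over the 25 arrays (r = -0.672, a description over arrays that share the normalization). Between depletion and supplemented rats no member was called, beside 0.184% of all probes, with differences from -0.14 to 0.10.

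**Figure D4:**
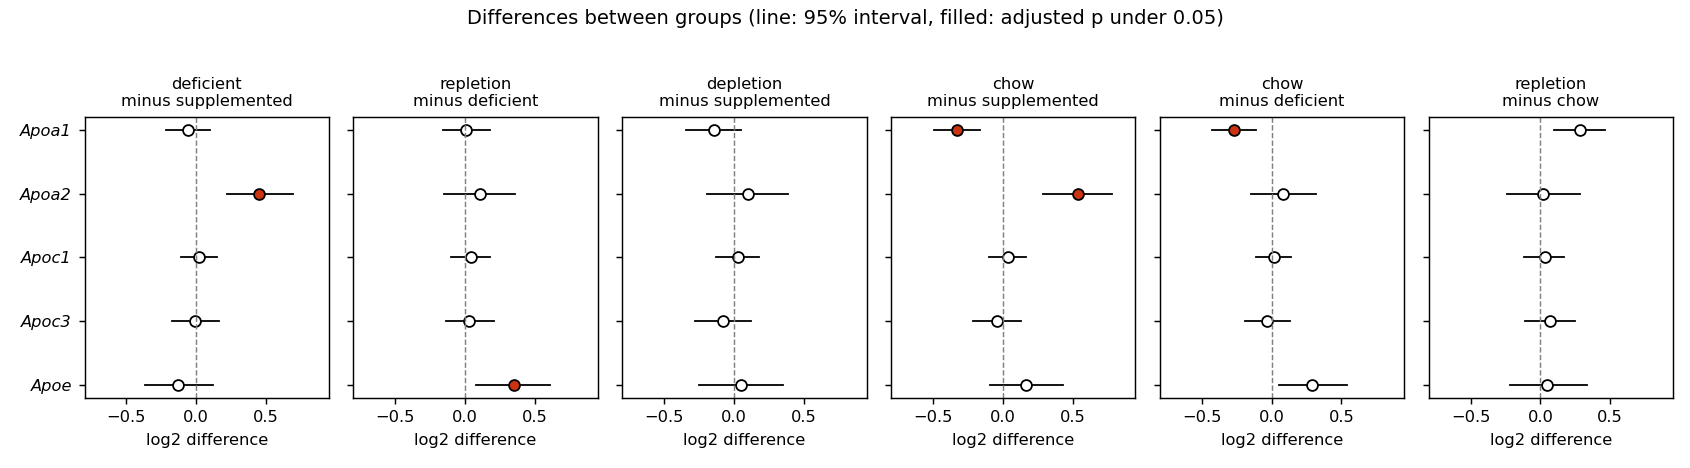
Log2 difference between group means (x axis) of the 5 apolipoproteins tested (y axis) in the 6 comparisons, with 95% intervals as lines and filled points where the adjusted p is under 0.05. The filled points are Apoa2 in deficient minus supplemented (0.45) and chow minus supplemented (0.54), Apoa1 in chow minus supplemented (-0.33) and chow minus deficient (-0.27), and Apoe in repletion minus deficient (0.35).

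**Figure D5:**
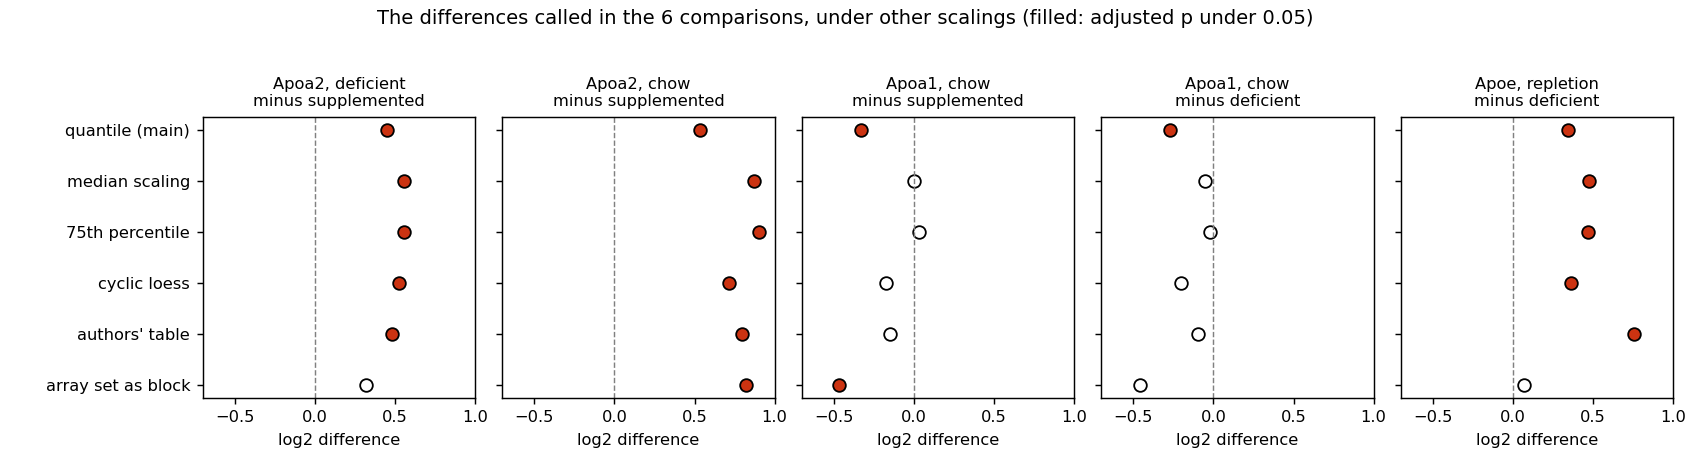
The 5 differences called in the 6 comparisons of the design (x axis, log2) under other scalings and with the array set as a fixed block (y axis), filled where the adjusted p is under 0.05. Apoa2 in chow minus supplemented is called in all 6 settings (0.537 to 0.905), Apoa1 loses its call under each of the other 4 scalings, and Apoa2 in deficient minus supplemented, Apoa1 in chow minus deficient (-0.458) and Apoe in repletion minus deficient lose theirs in the blocked fit, where Apoa1 in chow minus supplemented (-0.465) is called. In the blocked fit, chow minus supplemented rests on supplemented 1, the supplemented sample that shares a set with chow.

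Of the 5 differences called in the 6 comparisons of the design, that in Apoa2 between chow and supplemented rats kept its call under the most alternatives. It was positive under each of 18 alternatives, between 0.476 and 0.905, and passed in 17 of them. The exception was the test within array set 1 (0.824, adjusted p = 0.1041), which had 2 chow samples and 1 supplemented sample. With the array set as a random block it was 0.679 (adjusted p = 0.03064), and leaving out each sample in turn gave 0.443 to 0.615 (adjusted p from 0.003485 to 0.02947). With the array set as a fixed block, the chow to supplemented comparison rests directly on supplemented 1, the supplemented sample that shares a set with chow.

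Other genes of lipoprotein handling were described from a list of 52, of which 31 had a probe and 25 were tested. Nr0b2 had no value in supplemented and Nr1h3 none in repletion rats, which left 24 in each comparison with 1 of these groups. None of the 24 was called between deficient, depletion or chow and supplemented rats, or between repletion and chow rats. These shares of the list called, there and below, describe the list and were not tested against those of all probes. Between repletion and deficient rats 4 were higher and 4 lower of the 24 measured, beside 36.3% of all probes called (median difference -0.12, against -0.031 over all probes). Nr1h2, an oxysterol receptor (LXR beta), was higher by 1.03 (SE 0.17, adjusted p = 0.0001618). Scarb1, the HDL receptor, was higher by 0.84 (SE 0.17, adjusted p = 0.0009076). Asgr1, a subunit of the asialoglycoprotein receptor, was higher by 0.70 (SE 0.19, adjusted p = 0.006719). Foxa2, a liver transcription factor, was 2.215-fold lower (difference -1.15, SE 0.37, adjusted p = 0.0205). Sar1b, Lrpap1 and Pon1 were also called lower.

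Between chow and deficient rats 4 of the 25 were higher and 2 lower, beside 27.4% of all probes called (median 0.02, against -0.027 over all probes). Nr1h2 (0.86), Asgr1 (0.59) and Scarb1 (0.54, from 3 chow samples, since the other spots were defective) were higher, and Abca1, which loads lipid onto apolipoprotein A-I, was lower (difference -0.82, SE 0.31, adjusted p = 0.04899). The Abca1 call lay at the threshold: 7 of 17 alternatives kept it, and 3 of the 23 fits that each left out 1 sample. That of Scarb1 was kept in 8 of 16 and 17 of 23, and that of Nr1h2 in 15 of 17 and 23 of 23. Sar1b was also called lower. With the array set as a fixed block none of these named differences passed, and those of Asgr1 (both comparisons) and Scarb1 (chow against deficient) changed sign. Of the apolipoproteins outside the members, Apoa5 averaged between 13.78 and 14.04 and Clu between 12.03 and 12.38 in the 5 groups, and neither was called in the 6 comparisons. Without deficient 6 the count between chow and deficient rats was 11, and without chow 6 it was 2.

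Genes whose levels followed a member closely over the 23 samples were sought among 3699 named genes, by Pearson correlation, given here as a description of samples that share groups and array sets. Among the genes that followed Apoe were Slc25a20 (r = 0.865 over samples and 0.838 after subtracting group means) and Nr1h2 (0.863 and 0.817). The closest gene was Mocs1 for Apoa2 (0.742 and 0.635), Rnf128 for Apoa1 (0.748 and 0.437), Lsm5 for Apoc1 (0.829 and 0.816) and Rock2 for Apoc3 (0.722 and 0.798). Apoc1 and Apoc3 varied only within ranks 1 to 9 and 1 to 16, so all their correlations describe normalized values and not RNA levels. Among the members themselves the correlations ran from -0.279 (Apoa1 with Apoa2) to 0.449 (Apoa2 with Apoc1), and after subtracting group means these pairs were at 0.081 and 0.331. Apoa1 with Apoc1 moved the most, from 0.245 to 0.718. The chromosomal neighbours Apoc1 and Apoe were at 0.156 and -0.046, and Apoa1 and Apoc3 at 0.432 and 0.49.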

How the data were processed

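Per the labels' protocols, liver RNA was amplified, biotin-labelled and hybridized, unpooled, to CodeLink arrays. Per the file headers, the deposited tables of each array hold spot intensity, local background intensity and a flag (0 or 1), not normalized between arrays. Flagged spots are missing in the authors' deposited value table and were treated as defective (54 to 169 per array). The authors' deposited table holds their processed signal, with a linear scale (array medians 0.717 to 0.972, direction that of the scanner values by rank correlations of 0.997 to 0.9997). How the authors normalized it is not given in the sources used here, so it served as an alternative, with its 28 zeros set to missing.

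Of 10399 spots, 488 controls were removed after limma's normexp correction (offset 50). The other probes were quantile normalized on the log2 scale. A test was made where a probe exceeded the median of its array in 50% or more of a group's samples (5450 of 9911). Background ends at the median plus 3 times the MAD of 9 kinds of control spots at background level. The platform annotation, with symbols updated through RefSeq, gave 7356 probes 1 symbol, 86 several and 2469 none, and only the first were named. The brightest probe represents a gene. Tests used limma 3.58.1 (R 4.3.3) with 1 fit of all groups, 2-sided p-values and a threshold of 0.05 on the adjusted p, and were tested on simulated data. Members and gene lists were chosen with earlier results of these data known. All members are named, and of the pathway list up to 4 called genes per comparison by size of difference, above background on every array of a group, are named with values. Not every qualifying gene is reported here. Other called pathway genes were named after their values were seen, as counts of 5 or fewer. Near-identical arrays (spread under 0.15) and array sets (overlap of defective spots over 0.5) were defined after seeing the data. Same-numbered samples of different groups did not deviate together throughout (36 pairs, r of deviations from -0.268 to 0.693, median -0.037, 8 over 0.1), so the numbers were not taken as pairs. Python 3.11.15 was also used.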

Additional observations from a re-analysis of the deposited data

Results flagged for a closer look

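Of 28 sets of 4 to 6 samples (each of the 7 apolipoprotein probes in 4 groups; depletion, with 3 samples, was not examined), 6 had a highest or lowest sample farther from the rest than Dixon's critical value allows, where chance gives about 1 in 20. Apoc1 was low in repletion 4 (15.41, against 15.5 in the other repletion samples, which held the top rank). Quantile normalization gives the top rank the same value on every array, so those samples were tied. Any other rank in repletion 4 would have been flagged, and this flag is counted among the 6. Apoc3 was low in supplemented 1 (15.22, the nearest other sample at 15.45) and in deficient 6 (15.18, the nearest at 15.41). Apoe was low in chow 3 (15.14, the nearest at 15.36). The Apob probes were high in deficient 6 (6.68, the nearest at 6.32, and 7.32, the nearest at 6.81), both near background. Deficient 6, which holds 3 of the 6, is the deficient sample that lies in array set 4 with the depletion arrays. Without it, the count of members called was 2 between chow and deficient rats, since Apoe then passed.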

How the results depend on the processing

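Of 525 values of the 30 member differences under the alternatives other than leaving out a sample, 403 kept direction and side of the threshold, 24 lost the call, 21 gained one, 72 changed sign without a call in either setting and 5 reversed with a call in one of them. Those 5 were Apoc3 in chow against supplemented (0.326 with median scaling, 0.357 with 75th percentile scaling) and chow against deficient (0.25 and 0.28) and Apoa1 in chow against supplemented (0.03 with 75th percentile scaling). Among pathway genes, the sign turned for Asgr1 with the array set as a fixed block (-0.207 in repletion against deficient, -0.101 in chow against deficient) and for Scarb1 in chow against deficient (-0.119 with that block, -1.354 with defective spots kept). The cause was not tested.

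Counts of members called were 4 with median scaling and 4 with 75th percentile scaling between chow and supplemented, 3 and 4 between chow and deficient, and 4 and 4 over any difference. With cyclic loess they were 2 (depletion against supplemented) and 5 (any difference), and in the values of the authors 5 (repletion against deficient), 1 (chow against supplemented) and 5 (any difference). The gene-by-pair differences called were 16, 22, 20 and 19 under these 4 scalings, 2 with the array set as a fixed block, 1 with it as a random block and 4 on raw intensities. The counts of members in this paragraph stand without the share of all probes called in the same setting. They do not show whether members were called more often than probes in general. With the fixed block the counts were 0 for deficient against supplemented, repletion against deficient and chow against deficient, and with the random block 0, 0 and 0 in these and 1 for chow against supplemented. Within sets the count was 0 (chow against supplemented in set 1, deficient against supplemented in set 3). Fits of only the groups compared gave 0, 0, 1 and 0 for deficient against supplemented, repletion against deficient, chow against supplemented and chow against deficient. With 25 arrays as separate samples the count was 2 for chow against deficient and 1 for repletion against chow, and with sample weights 2 for chow against deficient. Of the settings chosen after seeing the data, raw intensities gave 0 for deficient against supplemented and 0 for repletion against deficient, and the array median as a covariate gave 1 for chow against supplemented. Median scaling moved the median of all probes to 0.14 between depletion and supplemented, and the quantile main value was 0.01. The split of all calls into higher and lower moved too: between chow and supplemented it was 271 and 246 with quantile normalization, 329 and 183 with 75th percentile scaling, 347 and 195 with cyclic loess and 243 and 132 in the authors' table, between deficient and supplemented 94 and 85 against 73 and 107 with loess, between depletion and supplemented 4 and 6 against 195 and 57 with median and 41 and 126 with 75th percentile scaling, between repletion and chow 31 and 42 against 37 and 29 with median scaling, between chow and deficient 655 and 839 against 899 and 614 with loess, and between repletion and deficient 840 and 1129 against 1084 and 891 with loess.

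Leaving out each sample gave 1 to 3 members over any difference, 1 to 2 for chow against deficient, 2 to 2 for chow against supplemented, 0 to 1 for deficient against supplemented and repletion against deficient, 0 to 0 for depletion against supplemented and repletion against chow, and 4 to 10 gene-by-pair differences. Without chow 1 and 2 or without chow 3 the count over any difference was 1. The replicate number as a block left 1 member over any difference, and changed no other count of members by over 1.5 times; the same-numbered samples share only a number. Pathway counts ranged from 0 to 16 for repletion against deficient and from 0 to 10 for chow against deficient. Leaving out saturated spots was not run, because no spot reached the limit, and no set held both groups of the other comparisons except repletion and chow. The response to array brightness was weaker among probes averaging 30000 to 40000 (median slope 0.45) and nearly flat above 40000 (0.07). Raw intensities exceeded 30000 for Apoc1 and Apoc3 on 25 of 25 arrays each, Apoa1 on 24, Apoe on 22 and Apoa2 on 20.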
